A study of Mus musculus with 16 samples.

Results

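The cells described here are G1E-ER4 cells given little or no beta-estradiol. They make up 4 of the 16 RNA-seq libraries of a dose series, namely the 2 libraries at 12.5 nM and the 2 at 0 nM beta-estradiol, and were chosen by their dose labels alone. G1E-ER4 is a clonal mouse erythroid progenitor line without endogenous GATA1 protein. Its introduced GATA1 is joined to the hormone-binding domain of the estrogen receptor, and every library, 0 nM included, comes from cells that make the fusion protein. All cells grew in Iscove's medium with fetal bovine serum, erythropoietin and stem cell factor. RLT buffer and Smart-seq2 were used for lysis and library preparation. The labels used here give no time in beta-estradiol. No label says that the 2 replicates of a dose came from separate cultures, so the spread between them may be technical. The p-values measure that spread as estimated from the replicates of all 16 libraries.

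GATA1 is a zinc-finger transcription factor that binds GATA motifs and turns on red cell genes, among them globins, heme enzymes and membrane proteins. Progenitors that lack it use the related factor GATA2 and depend on stem cell factor, the ligand of the receptor Kit, and erythropoietin, the ligand of Epor. Beta-estradiol releases the fusion protein into the nucleus. Transcript counts do not measure nuclear GATA1, so neither its release at 12.5 nM nor the absence of active GATA1 can be read from them.

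The authors deposited raw counts for 23410 gene symbols. Totals were 14734687 and 15802510 counts at 12.5 nM, against 14847803 and 14413969 counts at 0 nM. Levels are given as CPM, counts per 1000000 of the library total after scaling by the TMM method, and n is 2 at each dose. A count of 3 over the 4 libraries together corresponds to 0.0459 CPM, which is taken as the floor for a gene at 0. CPM orders genes by their counts, which also depend on transcript length, so levels of different genes are compared as CPM per kilobase of exon. RNA was taken from whole cultures, so fewer cells of a type and less RNA per cell cannot be told apart.

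Of the 23410 symbols, 9078 (38.8%) had at least 1 CPM in all 4 libraries and 10531 (45.0%) had no count in any. A further 398 reached 1 CPM in some of the libraries but not all. Counts were found for 11507 and 11589 symbols at 12.5 nM, against 11664 and 11644 symbols at 0 nM. Genes with a mean from 100 to 1000 CPM numbered 2000 and held 53.1% of all counts. The 72 genes at 1000 CPM or more held 22.9%, and the 5102 genes from 10 to 100 CPM held 23.0%. The order of genes was alike in the 4 libraries: 97 genes were among the 100 highest of every library, and 970 among the 1000 highest of every library. Between libraries the median coefficient of variation was 2.15% for genes at 1000 CPM or more, where counting error alone gives 0.680%. It was 13.6% for genes from 1 to 10 CPM, where counting error gives 12.2%.

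Promoters of genes with and without counts differed in base composition as groups, and 4 single promoters are printed for genes of very different level. Each stretch is the 200 bases before the transcription start, from RefSeq on GRCm38.p6, 5′ to 3′ on the gene's own strand, with CpG dinucleotides in capitals. Eef1a1 (chr9:78481725-78481924, minus strand) encodes translation elongation factor 1 alpha and had the highest level per kilobase. Klf1 (chr8:84901782-84901981, plus strand) encodes an erythroid transcription factor and stood at 233 CPM. Alas2 (chrX:150547217-150547416, plus strand) encodes the erythroid enzyme that starts heme synthesis and stood at 32.7 CPM. Mpo (chr11:87793584-87793783, plus strand) encodes the granulocyte enzyme myeloperoxidase and had no count in any of the 4 libraries.
Eef1a1: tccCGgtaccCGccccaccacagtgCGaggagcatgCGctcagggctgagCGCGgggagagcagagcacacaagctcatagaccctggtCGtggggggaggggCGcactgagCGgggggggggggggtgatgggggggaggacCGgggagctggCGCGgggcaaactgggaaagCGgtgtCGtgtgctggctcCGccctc
Klf1: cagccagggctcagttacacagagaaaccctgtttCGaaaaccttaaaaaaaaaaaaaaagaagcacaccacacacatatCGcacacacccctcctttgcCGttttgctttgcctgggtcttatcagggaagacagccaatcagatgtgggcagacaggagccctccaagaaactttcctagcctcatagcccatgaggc
Alas2: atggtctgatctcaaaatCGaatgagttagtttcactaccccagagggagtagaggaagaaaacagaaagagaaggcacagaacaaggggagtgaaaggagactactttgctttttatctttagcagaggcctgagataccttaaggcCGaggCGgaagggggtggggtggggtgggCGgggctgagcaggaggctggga
Mpo: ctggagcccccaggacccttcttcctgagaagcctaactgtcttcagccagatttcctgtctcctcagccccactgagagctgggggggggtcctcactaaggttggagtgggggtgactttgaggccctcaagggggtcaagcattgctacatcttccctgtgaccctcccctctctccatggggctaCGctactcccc
The printed stretches hold 15 CpG for Eef1a1, 3 for Klf1, 4 for Alas2 and 1 for Mpo. A GATA motif, taken as AGATAA or TGATAA on either strand, is found in those of Klf1 and Alas2 and not in those of Eef1a1 and Mpo.

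The same features were counted in 14679 promoters of 300 bases, from 250 before to 50 after the start. Median CpG was 4 for the genes without a count, 12 for genes from 0.1 to 1 CPM and 21 for genes from 1 to 10 CPM. It was 22 from 10 to 100 CPM, 23 from 100 to 1000 CPM, 21 above that and 13 over all promoters. At least 10 CpG were present in 28.9% of promoters of genes without a count, in 95.1% of those from 100 to 1000 CPM and in 56.6% of all. The letters GGGCGG, on either strand and themselves holding a CpG, were found in 26.4% of promoters of genes without a count, 77.5% of those at 1000 CPM or more and 46.3% of all. TATAAA went the other way, with 20.8% among genes without a count, 5% at 1000 CPM or more and 13.6% of all. The GATA motif was in 23.5% of promoters without a count, 8.70% of those from 100 to 1000 CPM and 16.3% of all. In the highest bin it was in 17.5%, a share of only 40 promoters. CCGGAAGT, an ETS-family motif that also holds a CpG, was in 0.897% of promoters without a count, 14.8% of those from 100 to 1000 CPM and 5.38% of all. A match describes the letters and is not a bound site.

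**Figure D1:**
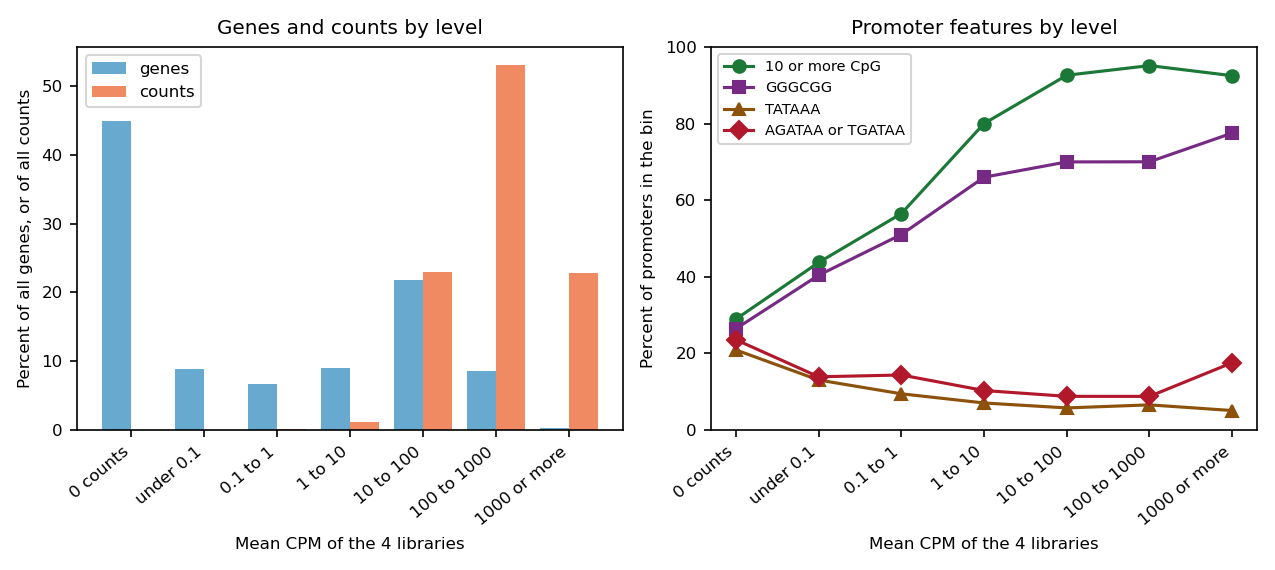
Left, bars give the percent of all 23410 genes (blue) and of all counts (orange) in each bin of mean CPM over the 4 libraries. Right, points give the percent of promoters in each bin that hold at least 10 CpG or the named motif on either strand. The CpG share is 95.1% from 100 to 1000 CPM. The TATAAA share is 20.8% without a count and 5% in the highest bin, which holds only 40 promoters.

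By mean CPM the first gene was Rn45s, the precursor of ribosomal RNA. It took 8.94% and 9.10% of counts at 12.5 nM, against 9.61% and 9.53% at 0 nM. Both 12.5 nM libraries lay below both 0 nM libraries, and with 2 against 2 an exact two-sided permutation test cannot give a p below 0.333. After TMM scaling its log2 fold change was -0.07 ± 0.04 (SE) and did not pass the test (edgeR quasi-likelihood, Benjamini-Hochberg adjusted p = 0.729). The 10 highest genes together held 13.2% of counts, and the 100 highest held 25.5% ± 0.2 (SD over the 4 libraries). For Rn45s, the 10 and 100 highest genes and the gene classes, the widest 95% Wilson interval of a share in any library spanned 0.0451 percentage points, for counting error only. With Rn45s left out, between 773 and 787 genes held 50% of the counts, depending on the library.

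Next by CPM was Eef1a1, with 5827 and 5962 CPM at 12.5 nM, against 5644 and 5610 CPM at 0 nM, or 3211 CPM per kilobase. Eef2, the factor that moves the ribosome along, followed by count with 5183 and 5339 CPM at 12.5 nM, against 5101 and 5091 CPM at 0 nM. The chaperone gene Hsp90ab1 averaged 4744 ± 68 CPM, the ferritin heavy chain gene Fth1 3982 ± 62 CPM and the ribosomal protein gene Rpl4 3772 ± 74 CPM (SD over the 4 libraries). The next places by CPM went to Ncl and Npm1 of the nucleolus, the ATP synthase gene Atp5b, Actb, the lactate dehydrogenase gene Ldha, and the carbonic anhydrase genes Car2 and Car1 of red cells. These 7 averaged between 2446 and 3646 CPM.

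Per kilobase the order shifted toward short genes, and 54 of the 100 highest genes by CPM were also among the 100 highest per kilobase. Among those next to Eef1a1 were Fth1 at 2556, Rpl4 at 2453 and the ferritin light chain gene Ftl1 at 2158 CPM per kilobase. The adult beta-globin entry, named Beta-s in the table (Hbb-bs in current names, chromosome 7, 103826534 to 103828096, minus strand, GRCm38), held rank 10 at 1855 CPM per kilobase. By count it held rank 47. Car1 stood above it at 1965 CPM per kilobase.

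**Figure D2:**
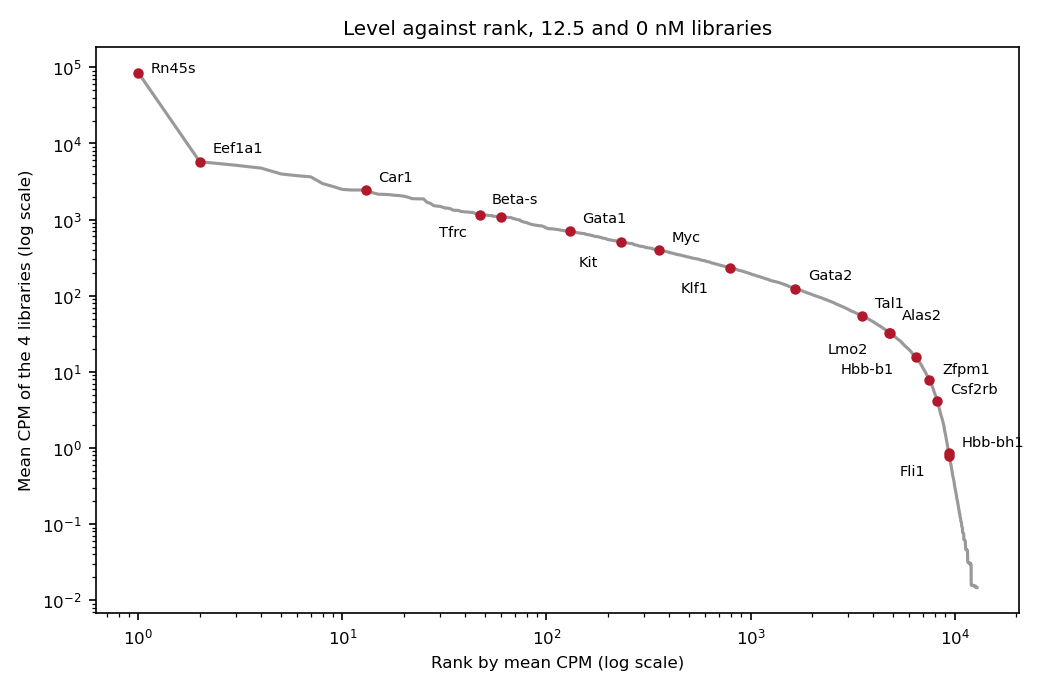
The grey line gives each gene's mean CPM over the 4 libraries against its rank, both on log scales, and red points mark named genes. Rn45s stands apart at 85000 CPM, Gata1 lies at rank 130 and Gata2 at rank 1653.

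Rn45s aside, genes of protein synthesis took the largest shares among the classes listed. The 81 cytosolic ribosomal protein genes together took 5.23% ± 0.04 of counts (SD over the 4 libraries), and 78 of them reached 1 CPM in all 4. Translation factors took 3.26% ± 0.04, with all 31 expressed. Heat shock proteins and chaperones took 2.85% ± 0.03, and 29 of 32 were expressed. Within that class the cytosolic and mitochondrial chaperonins Cct8 (1417 CPM) and Hspd1 (1504 CPM) led with Hsp90ab1 by CPM. The stress-induced genes Hspa1a and Hspb1 had no count and Hspa1b had 1 count in all. Hspa1a and Hspa1b are near-identical copies, so reads shared between them may be missing from both. Nuclear genes of oxidative phosphorylation took 2.35% ± 0.02, with all 53 expressed, and ribosome biogenesis genes took 1.56% ± 0.01, with all 32 expressed. Over all symbols the expressed share was 38.8%.

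All 40 DNA replication genes and all 34 mitosis genes reached 1 CPM in every library, as did 38.8% of all symbols. Mcm6, Mcm3, Mcm2 and Mcm5, parts of the helicase that opens replication origins, averaged 1684, 1382, 1129 and 1104 CPM. Ccna2, the cyclin of S and G2 phase, averaged 486 CPM. Among the G1 cyclins Ccnd2 (546 CPM, 81.3 CPM per kilobase) and Ccnd3 (324 CPM, 132 CPM per kilobase) were expressed, whereas Ccnd1 averaged 2.18 CPM, or 0.583 CPM per kilobase. Of the cell cycle inhibitors, Cdkn1a stood at 112 CPM, while Cdkn2a and Cdkn1c had no count.

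The transcription factors of red cell progenitors were present. Gata1 (chromosome X, 7959260 to 7978071, minus strand) had 667 and 703 CPM at 12.5 nM, against 755 and 667 CPM at 0 nM, and the doses overlapped. Counts do not separate the fusion transcript from the line's own gene, so this value does not check GATA1 protein. Gata2 (chromosome 6, 88193891 to 88207032, plus strand) had 120 and 123 CPM at 12.5 nM, against 133 and 121 CPM at 0 nM. Its level per kilobase was 33.7, against 367 for Gata1. All 22 erythroid factors and cofactors reached 1 CPM in every library, as did 38.8% of all symbols. Klf1 had 243 and 247 CPM at 12.5 nM, against 227 and 214 CPM at 0 nM, a log2 fold change of 0.15 ± 0.04 (SE) that did not pass the test (edgeR quasi-likelihood, Benjamini-Hochberg adjusted p = 0.0716). Gfi1b, a repressor needed for red cell and platelet formation, averaged 205 CPM, Bcl11a, the repressor of embryonic and fetal globin genes, 172 CPM, and Nfe2, a globin and platelet gene activator, 157 CPM. Zfpm1, the GATA1 partner FOG1, averaged 7.86 CPM, and Bach1, a heme-sensing repressor, at 4.25 CPM.

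Among 24 stem and progenitor factors, 15 were expressed and 6 had no count, beside 38.8% and 45.0% over all symbols. By CPM Myc came first, with 398 and 404 CPM at 12.5 nM, against 389 and 394 CPM at 0 nM. Lyl1, a relative of Tal1, averaged 200 CPM and the lymphoid and erythroid factor Ikzf1 208 CPM. Tal1 and Lmo2, which form a complex with GATA factors, averaged 53.9 and 32.1 CPM, and the progenitor factor Myb 41.6 CPM. Mycn, Mecom, Hlf and Gfi1, factors linked with stem cells and early progenitors, had no count. Further factors, chosen after their values were seen, were the myeloid factor Sfpi1 (PU.1) at 3.72 CPM, the megakaryocyte factor Fli1 at 0.794 CPM and Runx1 at 45.1 CPM.

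Receptor genes of erythroid progenitors were expressed. Of 19 stem cell surface genes, 4 reached 1 CPM in every library and 11 had no count. The shares over all symbols were 38.8% and 45.0%. Kit had 500 and 517 CPM at 12.5 nM, against 518 and 522 CPM at 0 nM, or 97.9 CPM per kilobase. Epor had 154 and 166 CPM at 12.5 nM, against 155 and 158 CPM at 0 nM, or 89.8 CPM per kilobase. The transferrin receptor gene Tfrc averaged 1093 CPM. All 8 progenitor markers listed (Kit, Epor, Tfrc, Gata2, Tal1, Lmo2, Klf1 and Myb) reached 1 CPM in every library. So did 38.8% of all symbols, and the markers were chosen with earlier results of these data known. Their levels therefore do not test what the cells are. The cytokine receptor genes Flt3 and Csf3r had no count, and neither had the stem cell surface genes Cd34, Slamf1, Cd48 and Ly6a. Itga2b, an integrin subunit of megakaryocytes and early progenitors, stood at 1.34 CPM. All 23 JAK-STAT genes, the pathway that carries the erythropoietin signal, reached 1 CPM, from Jak1 at 188 CPM to Socs1 at 1.58 CPM.

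Markers of other cell types were mostly low or without a count, set beside 38.8% expressed and 45.0% without a count over all symbols. No granulocyte or macrophage marker of 25 reached 1 CPM in all 4 libraries, and 14 had no count, among them Mpo, Elane and Ctsg. The summed level of these 25 averaged 1.05 CPM at 12.5 nM and 1.31 CPM at 0 nM. Of 25 lymphocyte markers 20 had no count and Gzmb alone passed, at 2.16 CPM. None of 20 fibroblast and endothelial markers passed, and Col1a1 and Dcn were at 0. Mast cell and basophil markers had 1 of 17 expressed, Tph1 at 2.80 CPM, and 7 without a count, among them the protease genes Mcpt4 and Tpsb2. Kit, Gata2 and Il1rl1, which mast cells share, were not on this list. Il1rl1, chosen after its value was seen, averaged 35.4 CPM. Megakaryocyte and platelet markers had 6 of 21 expressed and 10 without a count, nearer the shares over all symbols, led by Nbeal2 at 21.8 CPM and Gp5 at 11.6 CPM, while Ppbp, Gp1bb, Gp6 and Vwf had no count. Pou5f1 and Sox2 of embryonic stem cells had no count, and 2 of 22 genes on that list were expressed, Dppa4 at 50.9 CPM and the fetal blood regulator Lin28b at 39.8 CPM. Of 39 Hox genes 31 had no count, and the 5 expressed were Hoxc5 at 47.4, Hoxc4 at 26.6, Hoxb13 at 24.0, Hoxc8 at 6.46 and Hoxc9 at 2.67 CPM.

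**Figure D3:**
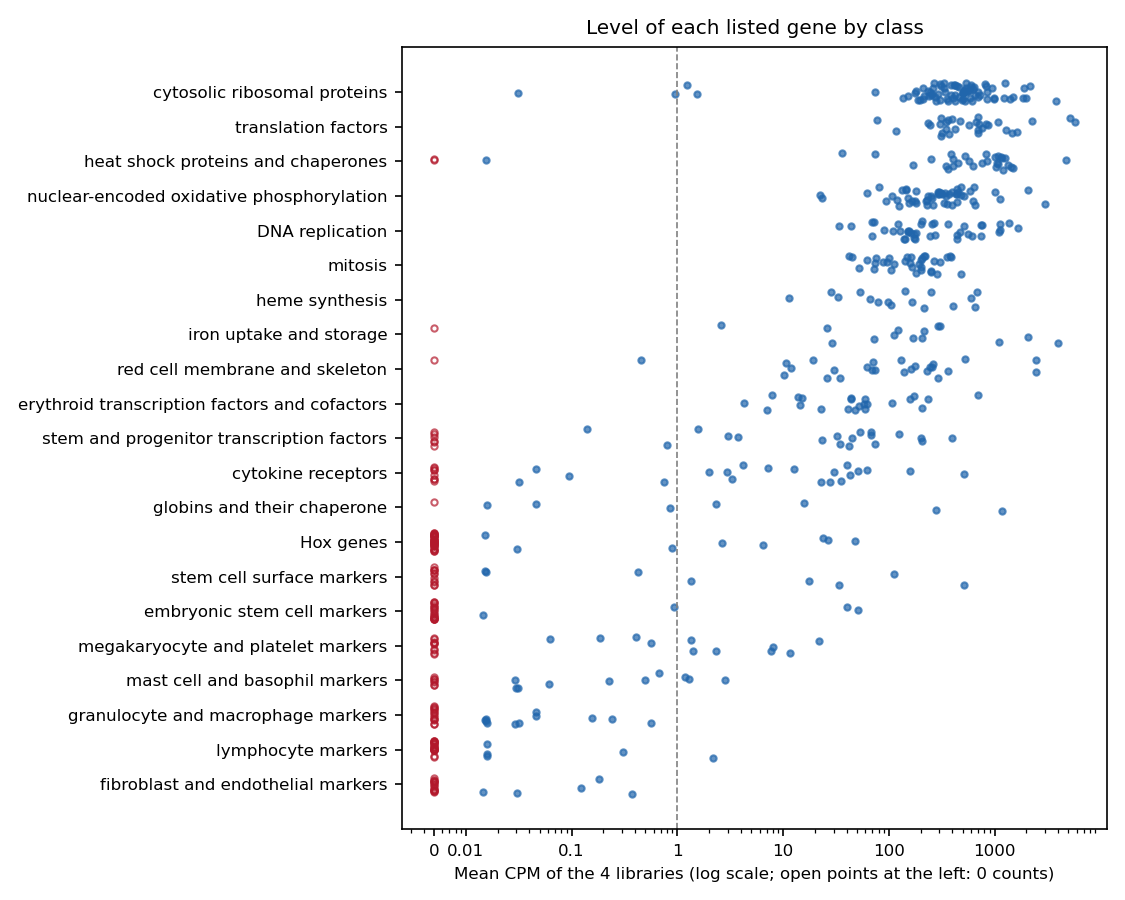
Each point is a listed gene at its mean CPM over the 4 libraries on a log scale, with open points at the left for genes without a count and a dashed line at 1 CPM. Most genes of the housekeeping and erythroid classes lie right of the line, and most markers of other cell types lie left of it or at 0.

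Most genes listed for heme synthesis, the red cell membrane and iron were expressed. Passing 1 CPM does not test whether a red cell programme is on. All 16 heme synthesis genes were expressed, by CPM from Fech, which inserts iron, at 683 CPM and Alad at 658 CPM to the housekeeping first enzyme Alas1 at 11.4 CPM. Alas2 had 30.5 and 34.7 CPM at 12.5 nM, against 32.9 and 32.8 CPM at 0 nM, with overlap between the doses. Per kilobase the values were 16.1 for Alas2, 2.88 for Alas1 and 518 for Alad. Of 26 red cell membrane and skeleton genes 24 were expressed, with the Rh-associated glycoprotein gene Rhag at 260 CPM and the protein 4.1 gene, listed as Epb4.1, at 294 CPM. The water channel gene Aqp1 had no count. Iron genes took 0.953% ± 0.017 of counts, with 14 of 15 expressed. Most of that share came from the ferritin genes Fth1 (0.435%) and Ftl1 (0.228%). For these 3 classes the expressed share over all symbols, 38.8%, is the background. The mitochondrial iron importer gene Slc25a37 stood at 25.8 CPM, or 6.18 CPM per kilobase, against 210 CPM per kilobase for Tfrc.

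Globin counts came mostly from adult genes. Beta-s had 1215 and 1290 CPM at 12.5 nM, against 1081 and 1074 CPM at 0 nM, and the doses did not overlap. Its log2 fold change of 0.22 ± 0.06 (SE) did not pass the test (edgeR quasi-likelihood, Benjamini-Hochberg adjusted p = 0.344). The adult alpha-globin gene Hba-a2 averaged 281 CPM, or 507 CPM per kilobase, and its near-identical copy makes this split uncertain. Hbb-b1, an adult beta-type gene whose reads may also be shared, averaged 15.6 CPM. Of the embryonic genes, Hbb-bh1 averaged 0.858 CPM, Hbb-y had 3 counts in all and Hba-x had none. The list of globins and their chaperone, with 8 of its 12 entries found, took 0.166% and 0.172% of counts at 12.5 nM, against 0.151% and 0.151% at 0 nM.

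Some genes active in nearly all cells were listed near 0. Tmsb4x, Amd1, Phgdh and H2-K1 had no count in any of the 4 libraries, Rpl26 had 2 counts, Eno1 averaged 0.429 CPM and Rps27, Rpl30 and Rpl34 between 0.947 and 1.55 CPM. All these genes were singled out after their values were seen. Many of these genes have close copies elsewhere in the genome, and the sources used here do not say how reads with more than 1 match were counted. Whether that set these values was not tested, and a single gene at 0 is read here as listed at 0, not as silent.

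The comparison of 12.5 nM with 0 nM asks how alike the doses at the low end are. It tested 10080 genes in a fit of all 16 libraries (edgeR quasi-likelihood, Benjamini-Hochberg adjusted p under 0.05). At 12.5 nM 28 genes were higher (0.278% of those tested) and 23 were lower (0.228%), 51 in all (0.506%). The unadjusted p was under 0.05 for 844 genes. All 51 had the same direction in all 4 pairings of a 12.5 nM with a 0 nM library, which their choice from these libraries largely fixes. Set against the label of an uninduced state, these 51 genes passed the test between the doses. Most changes were small, with a median of 1.19-fold among the genes that rose and 1.28-fold among those that fell. Calls fell to 18 higher and 11 lower without 12.5 nM replicate 1, 10 and 9 without 12.5 nM replicate 2, 16 and 10 without 0 nM replicate 1, and 8 and 9 without 0 nM replicate 2. These fits leave 1 sample at a dose, which is assumed to vary like the samples of the other doses.

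Among the genes that rose were 6 of the erythroid factor, heme, iron, red cell membrane and receptor lists. Abcb10, a mitochondrial transporter of heme synthesis (chromosome 8, 123952459 to 123983122, minus strand), had 160 and 158 CPM at 12.5 nM, against 126 and 126 CPM at 0 nM. Its log2 fold change was 0.33 ± 0.04 (SE, adjusted p = 1.161e-08, edgeR), and both 12.5 nM libraries lay above both 0 nM libraries. Gfi1b had 221 and 223 CPM at 12.5 nM, against 189 and 186 CPM at 0 nM, a log2 fold change of 0.24 ± 0.04 (adjusted p = 5.019e-05, edgeR). Tfrc had 1170 and 1127 CPM at 12.5 nM, against 1040 and 1033 CPM at 0 nM. Steap3, the endosomal ferric reductase, rose by 0.15 ± 0.03 on the log2 scale and Sptb, the red cell beta-spectrin gene, by 0.14 ± 0.03. Csf2rb, the common beta subunit of the interleukin-3, interleukin-5 and GM-CSF receptors, had 5.09 and 5.67 CPM at 12.5 nM, against 3.56 and 2.40 CPM at 0 nM. Its call was lost without 0 nM replicate 2 (log2 fold change 0.60, adjusted p = 0.412) and without 12.5 nM replicate 2 (0.77, adjusted p = 0.145, edgeR). By list these are 1 of 22 tested erythroid factors, 1 of 16 heme genes, 2 of 14 iron genes, 1 of 25 red cell membrane genes and 1 of 17 cytokine receptors, where 0.278% of all genes tested were higher.

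Tmem184a, a transmembrane protein gene, had the largest rise by fold of the genes called (chromosome 5, 139802485 to 139819917, minus strand). It had 27 and 31 counts at 12.5 nM, against 7 and 6 counts at 0 nM, or 1.74 ± 0.09 CPM and 0.404 ± 0.036 CPM. The log2 fold change was 2.09 ± 0.35 (SE, adjusted p = 2.121e-04, edgeR). Btg2, an antiproliferative gene, averaged 19.8 CPM at 12.5 nM and 14.0 CPM at 0 nM. Ube2l6, an enzyme of ISG15 conjugation, averaged 49.6 CPM at 12.5 nM and 38.1 CPM at 0 nM, and Crlf3 108 CPM at 12.5 nM and 84.3 CPM at 0 nM. These 4, and Abcb10, were called under all 11 other settings tried. The other genes named among those that rose were Tulp2 (log2 fold change 1.11), Plekho2 (0.66), Ddx26b (0.43), Ano1 (0.37), Micall2 (0.35) and Mavs (0.34), whose calls were lost under 1 to 8 of the settings. Leaving out 12.5 nM replicate 2 ended the call of each of these 6. The glycolysis genes Ldha and Pfkl and the replication licensing gene Cdc6 rose by 0.11, 0.21 and 0.18 on the log2 scale.

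Slc4a1, the band 3 anion exchanger of the red cell membrane, fell (chromosome 11, 102348824 to 102366203, minus strand). It had 67.8 and 62.1 CPM at 12.5 nM, against 81.3 and 85.0 CPM at 0 nM, a log2 fold change of -0.36 ± 0.04 (SE, adjusted p = 2.5e-07, edgeR). The doses did not overlap, and the call held under all 11 other settings. The list of red cell membrane genes thus had Sptb higher and Slc4a1 lower. Cish, a feedback inhibitor of erythropoietin signalling, fell by 0.23 on the log2 scale, the 1 gene called of 23 tested in the JAK-STAT list, where 0.228% of all genes tested were lower.

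Of the 21 tested genes on the list of long noncoding RNAs, which also held Rn45s, 4 were lower and none higher, where 0.228% of all genes tested were lower. Kcnq1ot1, the antisense RNA of an imprinted domain (chromosome 7, 143203458 to 143296549, minus strand), had 24.9 and 23.6 CPM at 12.5 nM, against 56.7 and 63.4 CPM at 0 nM. Its log2 fold change was -1.31 ± 0.08 (SE, adjusted p = 1.451e-16, edgeR), the smallest adjusted p of the genes called. Smart-seq2 does not keep strand, so reads of Kcnq1, on the other strand, cannot be told apart, and Kcnq1 was listed at 0 counts in all 4 libraries. Malat1, a nuclear RNA, had 94.9 and 84.0 CPM at 12.5 nM, against 115 and 115 CPM at 0 nM. Neat1, the scaffold of nuclear paraspeckles, averaged 5.74 ± 0.56 CPM at 12.5 nM and 9.36 ± 0.40 CPM at 0 nM. Xist, the RNA of X inactivation, averaged 3.66 ± 0.97 CPM at 12.5 nM and 6.68 ± 0.70 CPM at 0 nM, and its call was lost without 0 nM replicate 1, 0 nM replicate 2 or 12.5 nM replicate 2 (adjusted p from 0.108 to 0.579, edgeR). Of the protein-coding genes that fell, Adamtsl4 had 3 and 4 counts at 12.5 nM, against 14 and 26 counts at 0 nM. Mll2 and Ash1l, histone methyltransferase genes, fell by 0.40 and 0.42 on the log2 scale. The remaining genes named, with their log2 fold changes, were Tbrg3 (-1.15), Cd36 (-0.85), Eml5 (-0.75) and Ubn2 (-0.39). The call of Tbrg3 was lost without 12.5 nM replicate 1, that of Neat1 without 12.5 nM replicate 1 or 0 nM replicate 2, and those of Adamtsl4, Eml5 and Ash1l each without 3 of the 4 libraries in turn. Cd36 and Ubn2 lost theirs without any 1 of the 4. With DESeq2, Ash1l and Ubn2 were not called (adjusted p = 0.0867 for each, DESeq2). It gave no adjusted p for Tbrg3, Xist, Cd36, Eml5 and Adamtsl4. The call of Cd36 was also lost with library-size scaling, with DESeq2 size-factor scaling and with the replicate block.

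**Figure D4:**
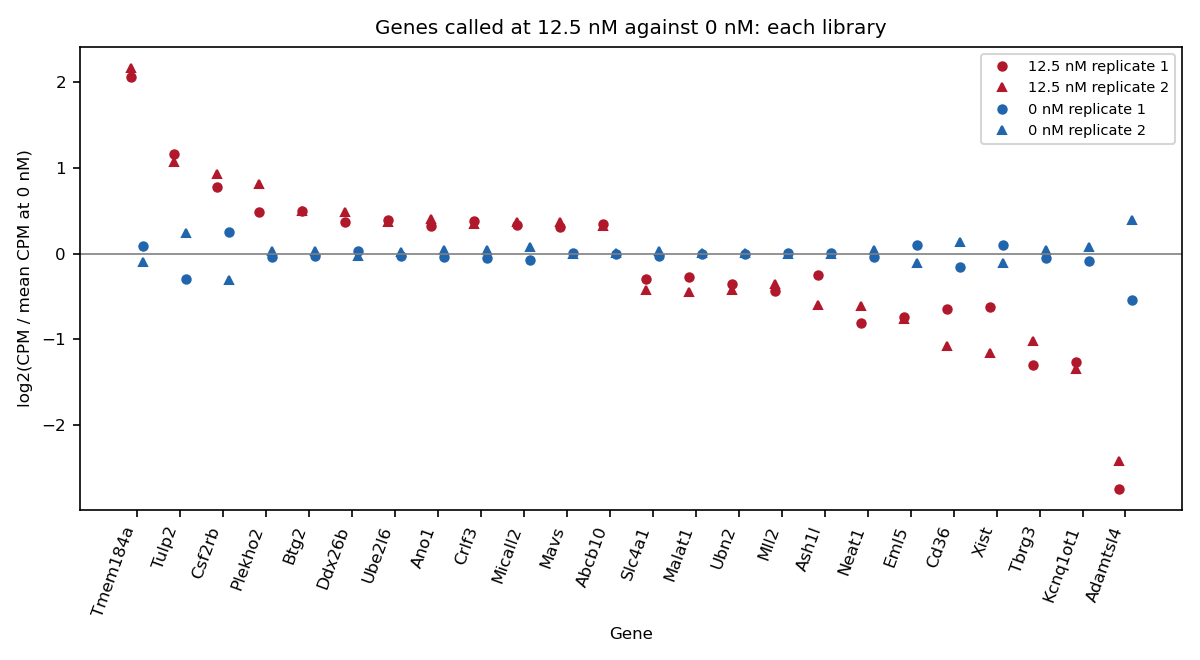
Each point gives a library's CPM over the 0 nM mean on the log2 scale, with 12.5 nM libraries in red left of the 0 nM libraries in blue, for the 24 named genes. Tmem184a is highest and Adamtsl4 lowest. In every gene shown both red points lie on the same side of both blue points, which the choice of these genes required.

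Transcript length moved with the direction of these calls. Median summed exon length was 2968 bases for the 28 genes that rose, 11640 bases for the 21 genes with a known length that fell and 3198 bases over all genes tested. Among genes averaging 1 CPM or more, the median log2 fold change was -0.04 for the 598 genes of 8000 bases or more and 0.02 for the 3599 genes from 2000 to 4000 bases. The part of length or RNA quality in the calls was not tested.

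**Figure D5:**
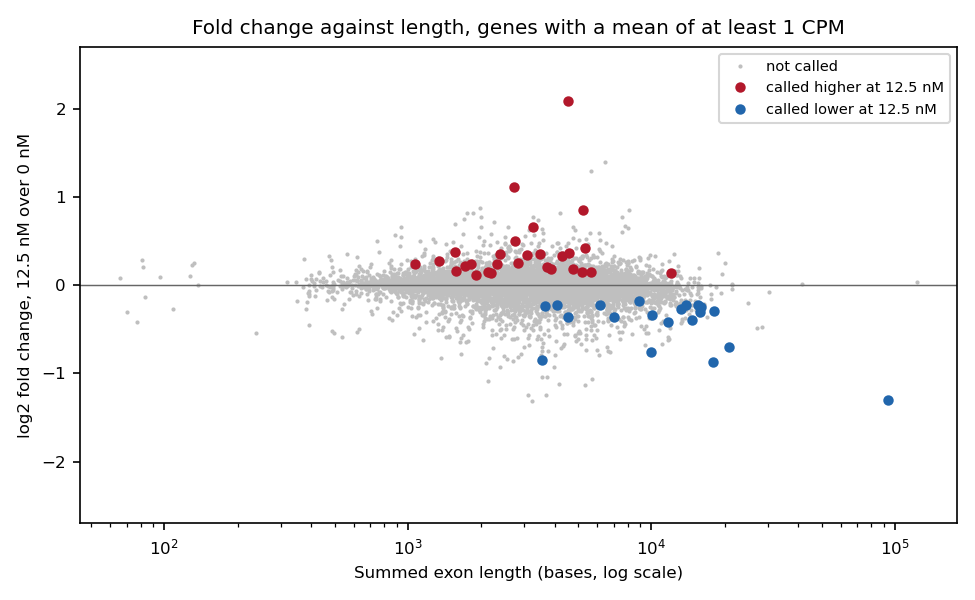
Each point is a tested gene averaging 1 CPM or more, at its summed exon length in bases (log scale) and its log2 fold change of 12.5 nM over 0 nM. Genes called higher (red) lie along the middle lengths, and genes called lower (blue) lie mostly toward the right, where Kcnq1ot1 is the longest of those called.

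The contrast of 200 nM with 25 nM takes its means from other libraries than the contrast of 12.5 nM with 0 nM, although both come from the same fit and share its filter, scaling and estimate of the spread. Between those doses 79.8% of all genes tested were called, 4093 higher and 3954 lower at 200 nM. Of the 28 genes higher at 12.5 nM, 24 were higher and 4 lower at 200 nM against 25 nM, with a median log2 fold change of 2.10. The 4 that were lower were Ldha, Pfkl, Sphk1 and Ddah2. Of the 23 genes lower at 12.5 nM, 17 were higher, 3 lower and 3 not called, with a median of 0.78. Over all genes tested the median was 0.02. Slc4a1 was among those 17, at 6.09 ± 0.04 on the log2 scale (SE).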

How the data were processed

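RNA of G1E-ER4 cells was sequenced in 16 libraries, 2 at each of 8 doses. The authors deposited raw counts per gene symbol in a single table, with whole numbers and a different total per library. The submitters' processing notes name STAR, bcl2fastq and mm10 without versions. A counting program, an annotation, a strand setting and a rule for reads with more than 1 match were not named in those notes or labels. Without molecular identifiers, counting intervals cover counting error only.

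The test used edgeR 4.0.16 (R 4.3.3). After filterByExpr with dose as group, 10080 genes remained; libraries were scaled by TMM and fitted with a robust quasi-likelihood model on all 16 libraries, dose as a factor. Benjamini-Hochberg adjustment was done per contrast, and genes under 0.05 were called. The SE of a log2 fold change is its size over the root of F. The script was tested on simulated data. Replicate libraries differed by more than counting noise (chi-square per gene 2.38 at 12.5 nM and 1.81 at 0 nM), so none was treated as a repeat deposit.

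Exon lengths and positions came from GENCODE release M21 (GRCm38), where 23007 of 23410 symbols had a single place, 1271 of the matches under an older symbol. Promoters came from RefSeq. There were 33 gene lists with 924 entries, 912 of them in the table. Members and lists were chosen with earlier results of these data known, and Beta-s was matched to its current name Hbb-bs after the table was seen. Genes named were the 12 highest by CPM and per kilobase, the 12 highest and 12 lowest fold changes among genes called with the same direction in all pairings, Gata1, Gata2, the progenitor markers, and the highest 6 and lowest 4 of each list; other called list members, and the 4 genes lower at 200 nM, are named from the counts they belong to. A few genes that qualify are not reported here. Alternatives were library-size and DESeq2 size-factor scaling, no filter, the 4 libraries alone, a replicate block, each library left out and DESeq2 1.42.0.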

Additional observations from a re-analysis of the deposited data

How the results depend on the processing

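The 12.5 nM against 0 nM comparison called 28 genes higher and 23 lower. The count lower became 47 when only the 4 libraries were fitted and 13 with DESeq2, which called 25 higher. Library-size scaling gave 19 higher and 22 lower, with 41 of the 51 genes called again. DESeq2 size-factor scaling gave 28 higher and 22 lower. Leaving out each library gave 8 to 18 genes higher and 9 to 11 lower, with 16 to 26 of the 51 genes called again. With the replicate number as a block 27 were higher and 21 lower. Deviations of same-numbered libraries at 12.5 and 0 nM correlated at -0.13, and the samples share only a number. With the numbers crossed, an alternative added after seeing the data, the counts were 28 and 22. Of the 24 named genes, 9 were called under every alternative, and no fold change reversed. The cause of these shifts was not tested.

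Leaving out Rn45s lowered the share of the 10 highest genes to 4.55% and of the 100 highest to 18.0%. It raised ribosomal proteins to 5.76%, translation factors to 3.59%, oxidative phosphorylation to 2.59% and globins with their chaperone to 0.176% (of a smaller total by construction). Ribosomal proteins held 37 of the 100 highest places per kilobase, against 16 by CPM. Depth limits low genes: from 0.1 to 1 CPM the median coefficient of variation was 47.8%, where counting error gives 45.9%.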

Other observations

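Of 32 nucleotide, folate and serine genes 30 were expressed, with Mthfd1, a folate enzyme, at 1157 CPM and Psat1, of serine synthesis, at 931 CPM. Glycolysis took 0.814% ± 0.024 of counts (SD over the 4 libraries), with Ldha at 2491 CPM and Ldhb without a count. Of its 22 genes 17 were expressed. The class holds Eno1, 1 of the genes listed near 0 above, so its share may be too low. Dnmt1, the maintenance DNA methyltransferase, averaged 607 CPM, while the de novo enzyme Dnmt3a had no count, as had the polycomb genes Cbx2 and Cbx8. Of 41 imprinted genes 14 were expressed and 19 had no count, H19 and Phlda2 among them, shares close to the 38.8% and 45.0% over all symbols.

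Of 25 survival and apoptosis genes 17 were expressed, where 38.8% of all symbols were. The death-promoting genes Bax and Bid averaged 179 and 144 CPM, or 207 and 65.9 CPM per kilobase. The protective genes Bcl2l1, a GATA1-responsive gene, and Mcl1 averaged 13.7 and 12.98 CPM per kilobase. Among endogenous retroviral and germline genes Erv3 alone was expressed, at 99.0 and 93.8 CPM at 12.5 nM, against 96.5 and 99.9 CPM at 0 nM. The estrogen receptor gene Esr1 averaged 72.9 CPM, while Esr2 and the estrogen targets Pgr, Greb1 and Tff1 had no count. These counts do not say whether Esr1 reads come from the fusion transcript or from the gene.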
